A study of Mus musculus with 29 samples.

Results

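The comparison described here sets NMM cells that were stimulated with TGFβ before IFNγ against cells that were kept in medium before IFNγ. It rests on 8 of the 29 libraries of the study, chosen by their labels as the 4 libraries of each sequence. NMM is a line of melanoma cells from mouse that carries an NRAS mutation. In the TGFβ-first libraries the cells received TGFβ (10 ng/ml) for 2, 6, 12 or 24 h, were washed 5 times with PBS and were then given IFNγ (100 ng/ml) for 24 h. In the medium-first libraries medium stood in place of TGFβ, and the durations, the wash and the 24 h of IFNγ were the same. Both groups therefore ended in IFNγ, and by the labels only the stimulus of the first stage differed. Each group has 1 library per duration, and libraries of equal duration were paired. All cells are of 1 line. No label speaks of separate cultures, so each duration was treated as 1 replicate. A p-value then reflects only how libraries scatter, part of which can be technical. This scatter was estimated over all 29 libraries, so groups outside the comparison and trends with duration enter it. A gene that is not called can therefore still differ clearly among the 8 libraries.

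TGFβ binds a pair of receptor kinases at the cell surface, which phosphorylate SMAD proteins. These enter the nucleus and, with partner factors, switch on genes of the extracellular matrix, the actin skeleton and adhesion, together with inhibitors that dampen the pathway. IFNγ, the main cytokine of activated T cells, acts through receptor-bound JAK kinases. The factors these activate bind gamma-activated sites (GAS) in promoters and induce the transcription factor IRF1, and IRF1 and other factors then act on interferon-stimulated response elements (ISRE). In tumour cells this response raises antigen presentation by MHC class I, the chemokines that attract T cells, the GTPases of cell-autonomous defence and the checkpoint ligand PD-L1. TGFβ is known as a suppressor of T cell immunity in tumours and as a driver of an invasive, matrix-producing state.

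Library totals of the 8 libraries lay between 17950669 and 23668015 counts, and mitochondrial transcripts took 0.624% to 0.936% of the counts in TGFβ-first and 0.676% to 0.814% in medium-first libraries. On the first principal component of the 8 libraries, which held 39.6% of the variance, the TGFβ-first libraries of 12 and 24 h stood apart at -36.8 and -48.0. The TGFβ-first libraries of 2 and 6 h lay at -5.43 and -5.07, and the medium-first libraries between 17.4 and 29.0. On the second component (20.2% of the variance) libraries of 12 and 24 h lay below those of 2 and 6 h in both groups. They were at -5.86 and -15.7 against 26.3 and 33.2 after TGFβ first. After medium first they were at -22.2 and -21.7 against -1.27 and 7.31. Of the melanocyte lineage, Mitf, Pax3 and Gpnmb were present, while Sox10, Pmel, Trpm1, Kit and Ednrb reached at most 0.355 CPM in any of the 8 libraries, and Tyr, Dct and Mlana were not analysed here. Of the leukocyte markers, Itgax, Csf1r and Lyz2 were at 0 in all 8 of the libraries and Ptprc near 0. The 3 tested ones, mostly Cd14, summed to 55.6, 71.8, 30.1 and 22.5 CPM in TGFβ-first libraries at 2, 6, 12 and 24 h, against 58, 67, 47.6 and 34 CPM in medium-first libraries, so that the sum was lower at 12 and 24 h along with the interferon genes described further on. The 7 tested fibroblast markers, mostly Col3a1, summed to 190.2, 202, 185 and 151 CPM in TGFβ-first libraries, against 197, 209, 235 and 232 CPM in medium-first libraries, lower at all 4 durations, with 1 of the 7 called lower (Pdgfrb), Dpt at 0 and Lum near 0. Of the 3 tested endothelial markers Cdh5 was higher, at 10.9 to 20.1 CPM in TGFβ-first and 5.45 to 9.8 CPM in medium-first libraries, and Plvap lower, at 1.37 to 3.83 CPM in TGFβ-first and 8.83 to 16.3 CPM in medium-first libraries, with Tie1 and Emcn at 0. Their part in the results was not tested. The library of medium at both stages of 6 h, which belongs to neither group but entered the fit, stood apart from the others of its group, and without it 3106 genes were called in place of 2365.

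Of 14935 genes tested, 2365 (15.8%) differed between TGFβ-first and medium-first libraries at an adjusted p below 0.05 in edgeR's quasi-likelihood test, which is what "called" means below. Of these, 1291 (8.64% of those tested) were higher and 1074 (7.19%) lower after TGFβ first. These are the shares over all genes to set beside the counts of list members called over the 4 durations below. The log2 difference was at least 1 for 209 of the higher genes and at most -1 for 237 of the lower genes, and 2269 of the 2365 had the same sign at all 4 durations. Without duration as a block the test called 1232 genes, all of them among the 2365. Values below are CPM, the count scaled to a common library size, per library, followed by log2 differences of TGFβ-first over medium-first cells with their standard error (SE). In bulk RNA, fewer cells of a kind and less RNA per cell cannot be told apart.

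Among genes averaging at least 2 CPM over the 8 libraries, the 12 largest called increases included genes of matrix, contractility and adhesion. Tnnt2, the cardiac troponin T gene (ENSMUSG00000026414, chr1:135836354-135852260 on GRCm38), had 486, 545, 500.3 and 509 CPM in TGFβ-first libraries at 2, 6, 12 and 24 h, against 47, 58.9, 50.4 and 51.7 CPM in medium-first libraries. Fbln2, which encodes the matrix protein fibulin 2 (ENSMUSG00000064080, chr6:91212455-91272540 on GRCm38), had 88.7, 92.3, 165 and 207 CPM in TGFβ-first libraries, against 13.4, 13.2, 13.3 and 12.4 CPM in medium-first libraries. The groups lay far apart for both genes, level across durations for Tnnt2 and with the higher Fbln2 values at 12 and 24 h. The log2 difference was 3.30 (SE 0.10, adjusted p = 2.09e-16) for Tnnt2 and 3.33 (SE 0.20, adjusted p = 5.25e-11) for Fbln2. Lamb3, a laminin chain of basement membranes, had 2.65, 2.1, 5.58 and 6.42 CPM in TGFβ-first libraries, while it was at 0 in all medium-first libraries except that of 2 h, with 0.0444 CPM. For Mmp12, a macrophage elastase, values were 5.8, 12.5, 7.04 and 9.68 CPM in TGFβ-first libraries, against 0.622, 1.23, 0.507 and 0.5 CPM in medium-first libraries, and the log2 difference was 3.59 (SE 0.40, adjusted p = 1e-06). Tfpi2, an inhibitor of serine proteases in the matrix, averaged 10.5 ± 1.79 CPM in TGFβ-first and 0.343 ± 0.21 CPM in medium-first libraries (SD, n = 4 each), with a log2 difference of 4.86 and an adjusted p of 2.18e-10. The other genes of this rank were Hmgcll1 (5.02), a lyase of ketone body metabolism, Ctla2a (4.38), a cathepsin inhibitor, Atp2b4 (3.38), a calcium pump of the plasma membrane, and Actr3b (2.98), of the actin-nucleating complex. Cdh10 (2.74), a cadherin, and Tnfrsf11b (2.99) were also among the 12. The groups did not overlap for any of the 12, nor for 2326 of all 14935 genes tested. As the 12 were chosen by these same values, their lack of overlap is no separate support. The adjusted p-values of the 12 in edgeR's test were at most 7.51e-06.

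**Figure D1:**
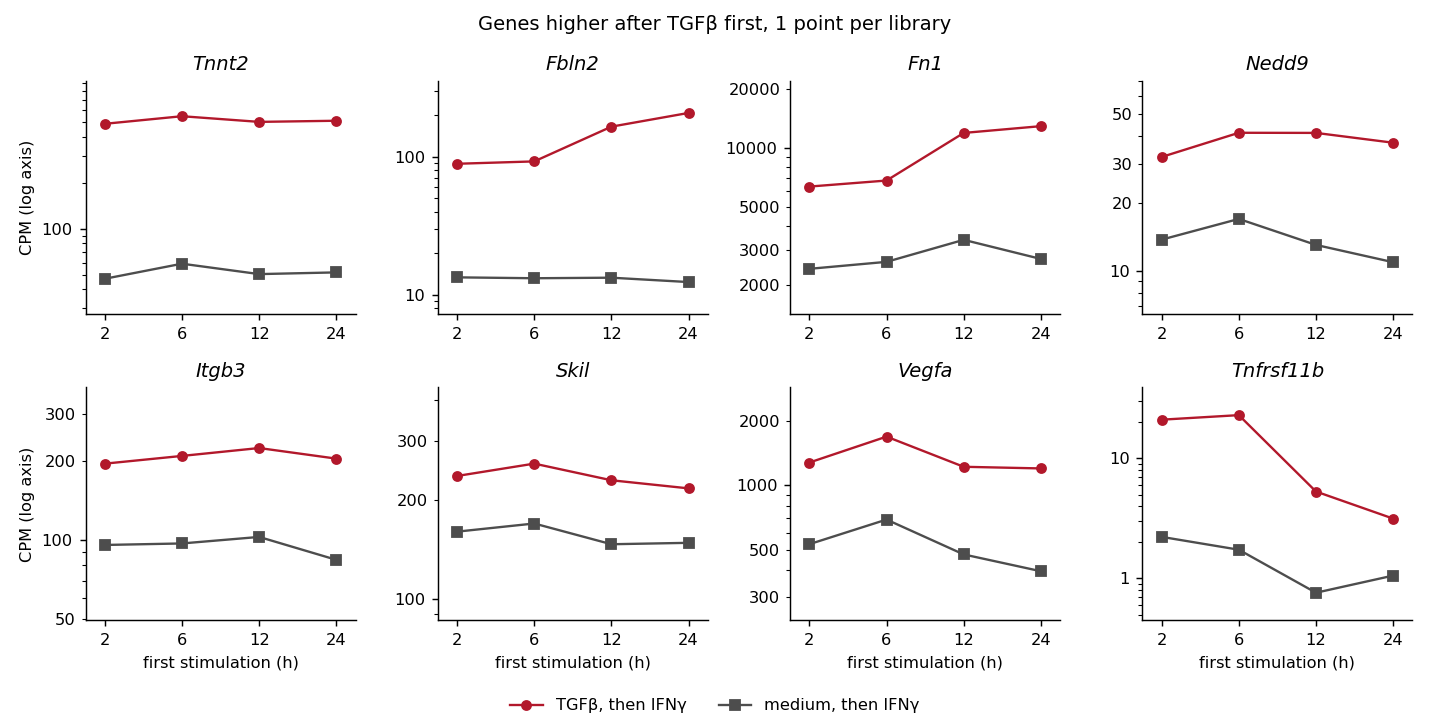
CPM of 8 genes in each TGFβ-first (red circles) and medium-first (grey squares) library, on log axes, by duration of the first stimulation. Every TGFβ-first value lies above every medium-first value of the same gene; the TGFβ-first values of Tnfrsf11b are 21 and 22.9 CPM at 2 and 6 h and 5.3 and 3.15 CPM at 12 and 24 h.

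Genes of the negative feedback of the TGFβ pathway were higher after TGFβ first, with 24 h of IFNγ in between. Of 19 tested feedback genes 9 were higher and 1 lower, with a median log2 difference of 0.24 against -0.01 over all genes tested. Skil, a co-repressor of SMAD proteins, had 236, 257, 229 and 216 CPM in TGFβ-first libraries at 2, 6, 12 and 24 h, against 160.0, 169, 147 and 148 CPM in medium-first libraries. Pmepa1, which keeps receptor SMADs from the receptor, had 198, 197, 165 and 205 CPM in TGFβ-first libraries, against 95.1, 101, 75.2 and 84.9 CPM in medium-first libraries. Neither gene had overlapping groups at any duration, and their log2 differences were 0.59 (SE 0.05, adjusted p = 4.22e-08) and 1.10 (SE 0.11, adjusted p = 1.6e-07). Smad7, the inhibitory SMAD (0.67), Ldlrad4, which blocks SMAD phosphorylation (1.35), and Fstl3, an antagonist of activins (1.10), also rose. Among 21 ligands, receptors and SMADs 3 were higher and 4 lower, with a median of 0.02. Of the receptors, Tgfbr1, the type I kinase, fell by 0.37 and Tgfbr3, the co-receptor betaglycan, by 1.01 on the log2 scale. For Tgfbr3 the libraries had 18.4, 26, 18.8 and 18.9 CPM in TGFβ-first libraries, against 49.3, 49.8, 35.6 and 31.3 CPM in medium-first libraries. All of the medium-first values exceeded all of the TGFβ-first values, among which the library of 6 h was the highest.

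Of 26 tested TGFβ target genes 9 were higher and 4 lower, with a median of 0.20. Nedd9, an adhesion scaffold, had 32.2, 41.3, 41.3 and 37.3 CPM in TGFβ-first libraries at 2, 6, 12 and 24 h, against 13.8, 17.1, 13.1 and 11 CPM in medium-first libraries, a log2 difference of 1.47 (SE 0.16, adjusted p = 9.09e-07) with no overlap. Vegfa, the vascular growth factor, rose by 1.38, and Timp1, an inhibitor of matrix metalloproteases that was counted among the proteases and inhibitors, by 1.47. Tgfbi, a matrix protein named for its induction by TGFβ, averaged 40.6 ± 5.75 CPM in TGFβ-first and 40.6 ± 10.3 CPM in medium-first libraries (SD, n = 4 each), and its log2 difference of 0.02 (adjusted p = 0.972 in edgeR's test) took the opposite sign with the 2 and 6 h libraries alone (-0.062). The 4 lower targets were Lox, Angptl4, Tgm2 and Id1, at log2 differences of -1.08, -1.06, -0.89 and -0.49, so members of this list moved both ways.

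Matrix genes were called in both directions. Of 23 collagens 5 were higher and 2 lower (median -0.14), of 23 matrix glycoproteins and proteoglycans 5 were higher and 6 lower (median -0.08), and of 19 proteases and inhibitors 6 were higher and 2 lower (median -0.02). Fn1, fibronectin, had 6338, 6804, 11909 and 12897 CPM in TGFβ-first libraries at 2, 6, 12 and 24 h, against 2409, 2615, 3388 and 2706 CPM in medium-first libraries. The groups did not overlap, the 12 and 24 h values after TGFβ were the highest, and the log2 difference was 1.75 (SE 0.19, adjusted p = 5.09e-07). Col5a2 and Col12a1, fibrillar and fibril-associated collagens, rose by 1.49 and 2.05, while Col3a1 had a difference of -0.48 that was not called (adjusted p = 0.193 in edgeR's test). It was called with the 12 and 24 h libraries alone, at -0.63 (adjusted p = 0.00319), and without the library of medium at both stages of 6 h, which stood apart from the other libraries of its group (adjusted p = 0.023). Col3a1 was not called in a test of the 12 and 24 h against the 2 and 6 h differences (-0.33, adjusted p = 0.877 in edgeR's test). Fbn2, fibrillin 2, fell by 1.13 and Lamc1, a laminin chain, by 0.39.

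Among 14 integrin genes 4 were higher and 2 lower (median 0.11). Itgb3, the β subunit of the vitronectin receptor, had 195, 209, 224 and 204 CPM in TGFβ-first libraries at 2, 6, 12 and 24 h, against 95.6, 96.9, 103 and 84 CPM in medium-first libraries, which gave a log2 difference of 1.13 (SE 0.07, adjusted p = 3.53e-11). Itga2, Itgb1 and Itga5, subunits of collagen and fibronectin receptors, rose by 1.60, 0.83 and 0.60. Itgb7, a subunit best known from gut-homing lymphocytes, had 40.7, 43, 29.9 and 19.7 CPM in TGFβ-first libraries, against 86.1, 82.8, 75.1 and 67.4 CPM in medium-first libraries, and fell by 1.24 (adjusted p = 0.00193 in edgeR's test). Of 16 actin and contractile genes 8 were higher and 1, Tpm2, lower (median 0.20), with Actb at 0.42, Tagln2 at 0.68 and Cald1 at 0.46. The list of factors and cadherins of epithelial-mesenchymal transition split evenly, with 5 of 14 higher and 5 lower. Zeb1 (0.44), Snai1 (0.46), Foxc2, Cdh2 and Cdh5 rose, and Cdh1 (-2.12), S100a4, Twist1, Twist2 and Prrx1 fell. Despite its fold, Cdh1 is not among the 12 largest decreases below. It missed their rule of a mean of at least 2 CPM and the same sign at all 4 durations.

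By the same rule, the 12 largest decreases included scavenger, lipid and iron handling genes. Scara5, a ferritin scavenger receptor (ENSMUSG00000022032, chr14:65666403-65764826 on GRCm38), had 1.08, 0.914, 1.8 and 0.859 CPM in TGFβ-first libraries at 2, 6, 12 and 24 h, against 9.9, 9.57, 8.72 and 7.28 CPM in medium-first libraries. Ppl, periplakin, a desmosomal linker, had 1.35, 1.33, 0.958 and 1.2 CPM in TGFβ-first libraries, against 6.93, 5.49, 6.03 and 7.95 CPM in medium-first libraries. For both genes every TGFβ-first value was far below every medium-first value at all durations, and the log2 differences were -2.95 (SE 0.31, adjusted p = 4.09e-07) and -2.43 (SE 0.17, adjusted p = 4.12e-10). Apod, apolipoprotein D, had 2.71, 3.2, 0.451 and 0.115 CPM in TGFβ-first libraries, against 11.1, 11.2, 5.53 and 9.06 CPM in medium-first libraries, so that its lowest values were those of TGFβ for 12 and 24 h. Its log2 difference was -2.75 (SE 0.48, adjusted p = 0.000295). Ltf, the iron-binding lactoferrin (-2.05), Cp, ceruloplasmin (-1.93), Xdh, xanthine dehydrogenase (-1.96), Ly6c1, a surface antigen (-2.45), Plvap, of endothelial diaphragms (-2.13), Ms4a4d (-2.12), Medag (-2.17) and Myo18b (-1.98) also fell, with adjusted p-values of at most 0.0021 in edgeR's test. Slfn4, a member of the Schlafen family, had the same rank (-2.19), but its groups overlapped.

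Genes at the core of the IFNγ response were for the most part not called. Irf1 (ENSMUSG00000018899, chr11:53770014-53778374 on GRCm38) had 497, 475, 490.5 and 433 CPM in TGFβ-first libraries at 2, 6, 12 and 24 h, against 509.8, 465, 532 and 513 CPM in medium-first libraries. Gbp2, a guanylate-binding protein, had 2406, 2329, 2446 and 1835 CPM in TGFβ-first libraries, against 2484, 2469, 2775 and 2808 CPM in medium-first libraries. The values of Irf1 overlapped between the groups, and those of Gbp2 were apart by little except after 24 h of TGFβ. Their log2 differences were -0.10 (SE 0.25, adjusted p = 0.838) and -0.28 (SE 0.59, adjusted p = 0.805), and neither was called. Of 18 genes of IFNγ signalling 2 were lower, Batf2 (-0.85), a factor that acts with IRF1, and Ptpn6 (-0.53), a phosphatase, with a median of -0.08 for the list. Socs1, the inducible inhibitor of JAK kinases, had -0.36 (adjusted p = 0.0926) and was not called in edgeR's test. For comparison, with medium at both stages as the control, IFNγ after medium raised 9 of these 10 tested GBP genes and all 10 tested genes of the IRG family (22.7% of all genes). It raised 8 of 12 MHC class I chains and 10 of 17 Ifi200 and Schlafen genes. Of 45 antiviral genes it raised only 13 and lowered 2 (21.2% of all genes were lowered). Ifit3 (1.19, adjusted p = 0.153), Isg15 (0.54, adjusted p = 0.412) and Oas2 (-0.34, adjusted p = 0.668) were not called for IFNγ in edgeR's test.

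Antiviral and MHC class I genes had lower values after TGFβ for 12 and 24 h, although few were called over all 4 durations. The 45 tested antiviral genes summed to 22099, 19793, 12973 and 7879.6 CPM in TGFβ-first libraries at 2, 6, 12 and 24 h, against 23299, 21533, 21638 and 25420.0 CPM in medium-first libraries. MHC class I chains, 12 genes, summed to 5674, 5643, 3411 and 2414 CPM in TGFβ-first libraries at 2, 6, 12 and 24 h, against 6301, 6576, 5256 and 5271 CPM in medium-first libraries. The medium-first sums changed little with duration, while those after TGFβ at 24 h were well below those at 2 h. Median log2 differences at 2, 6, 12 and 24 h were -0.09, -0.13, -0.67 and -1.55 for the antiviral genes, -0.30, -0.33, -0.89 and -1.58 for MHC class I chains, and -0.02, -0.09, -0.89 and -1.95 for 17 genes of the Ifi200 and Schlafen families. Over all genes the medians at the 4 durations stayed between -0.01 and 0.

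**Figure D2:**
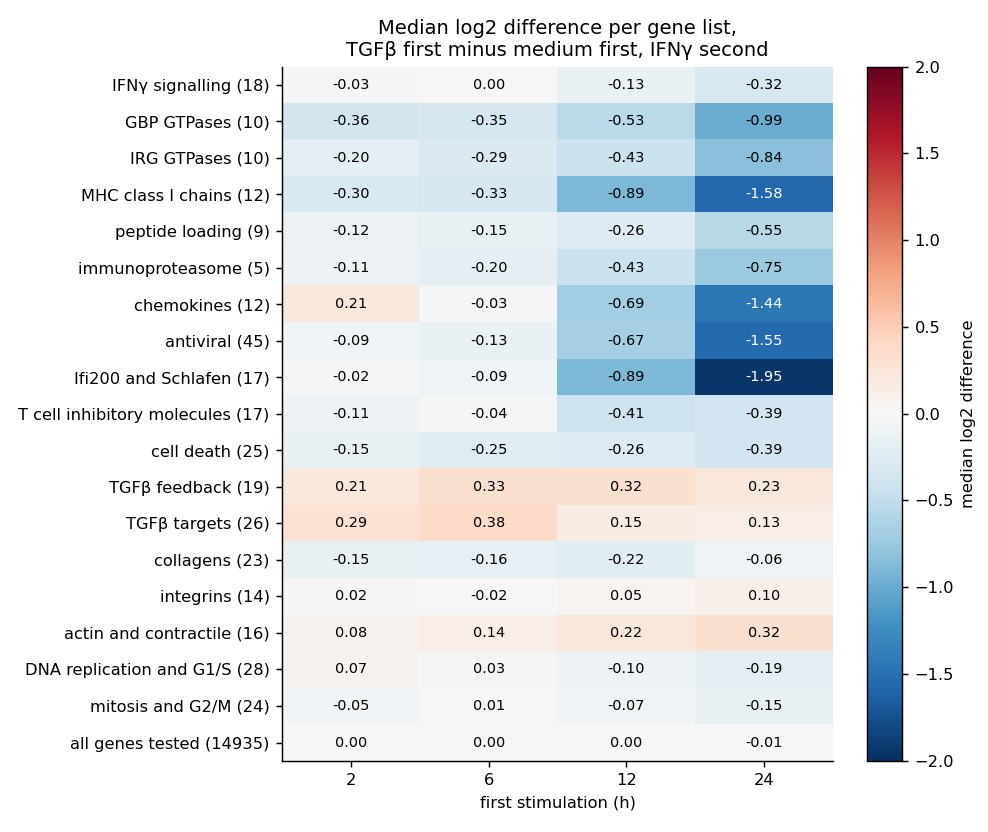
Median log2 difference of TGFβ-first minus medium-first libraries for 18 gene lists and all genes tested (rows, number of tested genes in brackets) at each duration of the first stimulation (columns, h). Interferon lists turn darker blue at 12 and 24 h, down to -1.95 for the Ifi200 and Schlafen genes, while TGFβ feedback stays between 0.21 and 0.33.

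Pooled over the 4 durations, few of these genes were called. Over all genes tested 7.19% were lower and 8.64% higher. Lower were 2 of the 45 antiviral genes (Mx1 and Ifit1bl1) while 1 was higher (Ifitm1), and 1 of 12 MHC class I chains (H2-T24). Lower too were 4 of 9 peptide loading genes (Tap2, Tapbpl, Calr and Canx), 0 of 5 immunoproteasome and 0 of 10 IRG genes. The same held for 3 of 10 GBP genes (Gbp10, Gbp11 and Gbp8), 2 of 12 chemokines (Ccl2 and Ccl7) and 2 of 17 Ifi200 and Schlafen genes (Slfn4 and Slfn5). Ifit1bl1 averaged only 0.551 CPM in TGFβ-first and 2.23 CPM in medium-first libraries. In DESeq2 the counts were 0 for MHC class I and 0 for both the IRG and the immunoproteasome genes. At an unadjusted p below 0.05, 1 of the 10 IRG and 0 of the 5 immunoproteasome genes passed. With the 8 libraries fitted alone, the other groups did not enter the scatter. There the count was 7 for MHC class I, 6 for IRG, 6 for GBP, 5 for antiviral and 2 for immunoproteasome genes. The calls of Batf2, Calr, Canx, H2-T24, Mx1, Slfn4, Slfn5, Tap2 and Tapbpl were each lost without the TGFβ-first library of 24 h (adjusted p = 0.0665 to 0.138 in edgeR's test). All of these except Canx were lost without other single libraries as well, of either group, with adjusted p-values of up to 0.185.

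Fits to the short and to the long first stimulations, chosen after the data had been seen, gave different counts. With the 2 and 6 h libraries 672 of 14114 genes were called (4.76%), 405 of them higher (2.87%) and 267 lower (1.89%), and with the 12 and 24 h libraries 2838 of 14594 (19.4%), 1303 of them higher (8.93%) and 1535 lower (10.5%). Lower after 2 and 6 h were 1 of 45 antiviral genes, 0 of 12 MHC class I chains, 0 of 17 Ifi200 and Schlafen genes, 0 of 10 IRG and 3 of 10 GBP genes. Lower after 12 and 24 h were 33 antiviral genes, all 12 MHC class I chains and 15 Ifi200 and Schlafen genes. So were 5 IRG and 7 GBP genes, 6 of 9 peptide loading genes and 7 of 12 chemokines. Of 5 immunoproteasome genes 0 were lower after 2 and 6 h and 3 after 12 and 24 h. A test of the long against the short differences themselves called 10 of all 14935 genes (0.067%). None of the antiviral, MHC class I, Ifi200 and Schlafen, IRG, GBP or immunoproteasome genes was among them. Those called included Fbln2 (1.08, adjusted p = 0.0317) and Ccl4 (-3.83, adjusted p = 0.0121). Ptgs2, of the molecules that restrain T cells, was also called (-1.09, adjusted p = 0.0347 in edgeR's test). At an unadjusted p below 0.05 (8.87% of all genes) this test took in 30 of the 45 antiviral genes and 11 of the 12 MHC class I chains. It also took in 14 of the 17 Ifi200 and Schlafen genes, 1 of the 10 GBP, 0 of the 10 IRG and 1 of the 5 immunoproteasome genes. A test of the difference in slope on log2 duration called 0 genes (0%) in edgeR, 1 in DESeq2, and had 743 at an unadjusted p below 0.05.

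**Figure D3:**
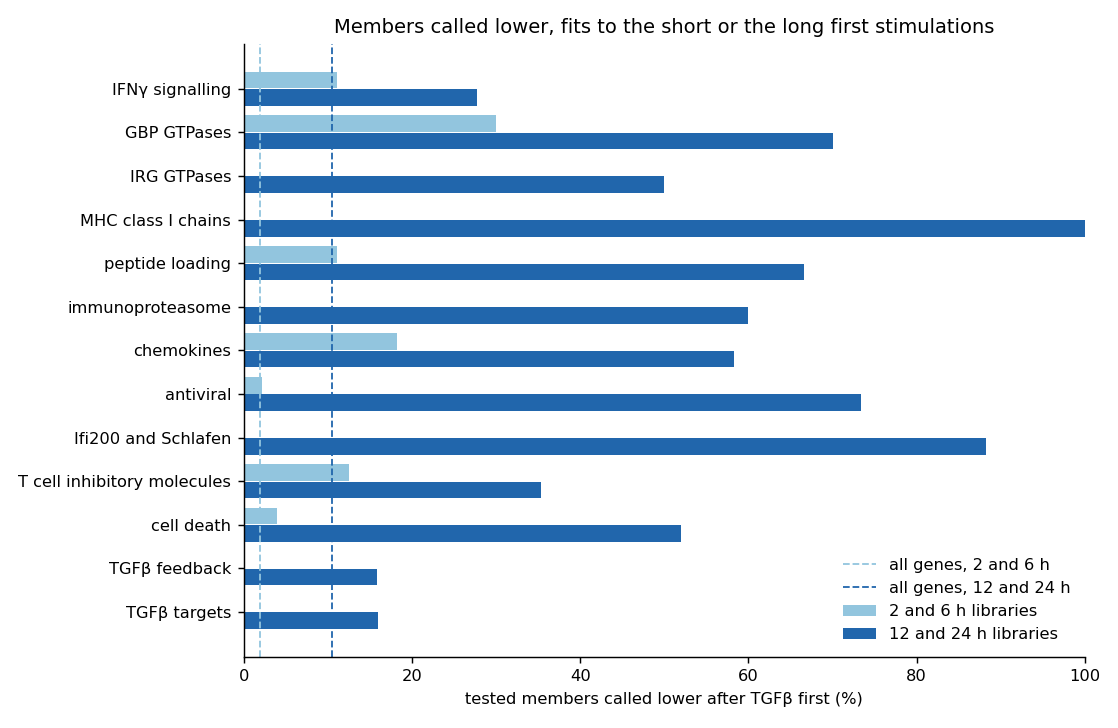
Share of the tested members of 13 gene lists called lower after TGFβ first (%), in fits to the 2 and 6 h libraries (light bars) and to the 12 and 24 h libraries (dark bars). Dashed lines mark the shares over all genes, 1.89% and 10.5%; all 12 MHC class I chains and 33 of 45 antiviral genes are called in the long fit, against 0 and 1 in the short fit.

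Single genes show the steps behind these counts. Ifit3, an inhibitor of viral RNA translation, had 1664, 1297, 870.5 and 372 CPM in TGFβ-first libraries at 2, 6, 12 and 24 h, against 1739.9, 1505, 1692 and 2086 CPM in medium-first libraries. Oas2, a sensor of double-stranded RNA, had 81.2, 64.7, 21.2 and 7.05 CPM in TGFβ-first libraries, against 130.1, 108, 83.7 and 100.2 CPM in medium-first libraries. Isg15, the ubiquitin-like modifier, had 507, 439.7, 285 and 162 CPM in TGFβ-first libraries, against 530.4, 506, 456 and 561 CPM in medium-first libraries. In all of these the TGFβ-first values of 12 and 24 h lay below every medium-first value, while at 2 and 6 h the libraries of Ifit3 and Isg15 were close. Over the 4 durations their log2 differences were -1.13 (SE 0.67, adjusted p = 0.278), -1.68 (SE 0.61, adjusted p = 0.0628) and -0.75 (SE 0.51, adjusted p = 0.351), and none was called. In the long fit they were -1.63 (adjusted p = 0.0162), -2.70 (adjusted p = 3.22e-05) and -1.18 (adjusted p = 0.0173), and in the short fit -0.14 (adjusted p = 0.757), -0.71 (adjusted p = 0.000668) and -0.14 (adjusted p = 0.427), so that only Oas2 was called in both. None of these genes was called in the direct test of long against short (adjusted p = 0.433, 0.119 and 0.397 in edgeR's test).

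H2-K1, the classical MHC class I heavy chain, had 1388, 1334, 745 and 525 CPM in TGFβ-first libraries at 2, 6, 12 and 24 h, against 1594, 1654, 1250.5 and 1276 CPM in medium-first libraries. B2m, the light chain of all class I molecules, had 1792, 1866, 1267 and 980.1 CPM in TGFβ-first libraries, against 1930.5, 2061, 1777 and 1689 CPM in medium-first libraries. Both were lower at 12 and 24 h of TGFβ than in any medium-first library and overlapped at 2 or 6 h. Their log2 differences were -0.63 (SE 0.31, adjusted p = 0.177) and -0.39 (SE 0.26, adjusted p = 0.336), and in the long fit -0.99 (adjusted p = 0.000321) and -0.62 (adjusted p = 0.00589). Neither was called in the direct test of long against short, at -0.74 (adjusted p = 0.331) and -0.50 (adjusted p = 0.46) in edgeR's test. Of the peptide supply, Tap1, a subunit of the peptide transporter, had -0.26 (adjusted p = 0.764) and Psmb8, an immunoproteasome subunit, -0.59 (adjusted p = 0.524), not called in edgeR's test. In the long fit Psmb8 was called, at -0.86 (adjusted p = 0.0126), and Tap1 was not, at -0.36 (adjusted p = 0.217). Psmb8 was not called for long against short (-0.72, adjusted p = 0.507 in edgeR's test). Tap2, the partner of Tap1, had 108, 92.5, 79.1 and 64.2 CPM in TGFβ-first libraries, against 158, 145, 132 and 139 CPM in medium-first libraries, and its difference of -0.76 was called (adjusted p = 0.0193 in edgeR's test). Nlrc5, the transactivator of class I genes, had -0.17 (adjusted p = 0.691).

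Of the chemokines, those that attract monocytes were called lower. Ccl2, which attracts monocytes, had 65.5, 65.1, 18.1 and 9.28 CPM in TGFβ-first libraries at 2, 6, 12 and 24 h, against 143, 127, 77.5 and 97.4 CPM in medium-first libraries. All TGFβ-first values lay below all medium-first values, the lowest after 12 and 24 h, and the log2 difference was -1.62 (SE 0.31, adjusted p = 0.000794). Ccl7, a related monocyte chemokine, had a difference of -1.40 (SE 0.29, adjusted p = 0.0018), with groups that overlapped. Cxcl9 and Cxcl10 attract T cells through the receptor CXCR3. Cxcl10 had 1315, 1225, 629 and 331 CPM in TGFβ-first libraries, against 1126, 994, 1034 and 1192 CPM in medium-first libraries. After 2 and 6 h of TGFβ it was above all medium-first values, and after 12 and 24 h below all of them. Its overall difference was -0.66 (SE 0.63, adjusted p = 0.542), with 0.27 (adjusted p = 0.78) in the short fit and -1.22 (adjusted p = 0.0146) in the long fit. Tested directly, the long minus the short difference of Cxcl10 was -1.47 (SE 0.66, adjusted p = 0.509 in edgeR's test) and was not called. Cxcl9 had an overall difference of -0.63 (SE 0.23, adjusted p = 0.0681), with -0.11, 0.05, -0.82 and -1.61 at the 4 durations, and passed the threshold under 6 alternatives, among them leaving out the medium-first library of 2 h or of 6 h. Vcam1, a leukocyte adhesion molecule, fell by 1.77 (adjusted p = 1.26e-05 in edgeR's test), without overlap.

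**Figure D4:**
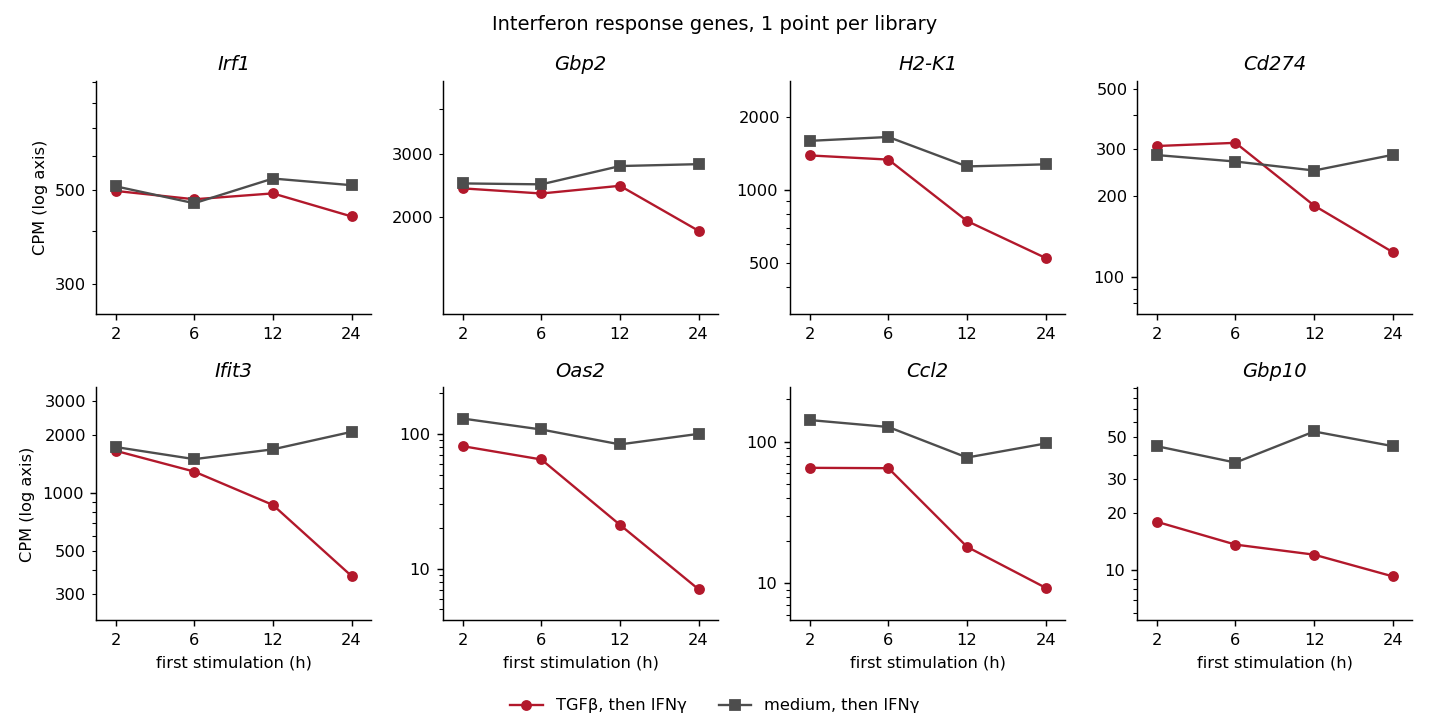
CPM of 8 interferon response genes in each TGFβ-first (red circles) and medium-first (grey squares) library, on log axes, by duration of the first stimulation. Irf1 and Gbp2 stay close to the medium-first values up to 12 h, Gbp10 and Ccl2 are lower at every duration, and Cd274 and Ifit3 separate from 12 h on.

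Of the GBP genes that were called, Gbp10 had 17.9, 13.6, 12.1 and 9.28 CPM in TGFβ-first libraries at 2, 6, 12 and 24 h, against 44.6, 36.6, 53.3 and 44.6 CPM in medium-first libraries. The groups lay apart from 2 h on, with a log2 difference of -1.80 (SE 0.24, adjusted p = 1.1e-05). Gbp11 and Gbp8 had differences of -1.66 and -1.11, while the family median was -0.56. GBP genes are near-identical neighbours in the genome, so reads may be split between them, which applies to MHC class I, Ifit, Schlafen and Ly6 genes too.

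Promoter sequences of 4 interferon genes are shown because their differences did not run alike. Irf1 and Igtp represent genes with GAS letters, and Ifit3 and Isg15 the antiviral genes whose values were lowest after 12 and 24 h of TGFβ. Each is the 250 bases before the start of transcription, from RefSeq on GRCm38.p6, 5′ to 3′ on the strand of the gene. Irf1 had 2 listed promoters, of which the first is shown. Capitals mark GAS letters (TTCNNNGAA) and ISRE letters (TTTC, any 2 bases, TTTC), searched on both strands, where neighbouring matches overlap in Isg15.
Irf1 (chr11:53769764-53770013, plus strand): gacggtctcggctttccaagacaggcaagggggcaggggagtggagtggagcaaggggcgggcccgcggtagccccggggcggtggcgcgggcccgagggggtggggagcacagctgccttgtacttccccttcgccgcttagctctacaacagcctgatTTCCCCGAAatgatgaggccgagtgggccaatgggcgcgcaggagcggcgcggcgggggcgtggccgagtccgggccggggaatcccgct
Igtp (chr11:58199306-58199555, plus strand): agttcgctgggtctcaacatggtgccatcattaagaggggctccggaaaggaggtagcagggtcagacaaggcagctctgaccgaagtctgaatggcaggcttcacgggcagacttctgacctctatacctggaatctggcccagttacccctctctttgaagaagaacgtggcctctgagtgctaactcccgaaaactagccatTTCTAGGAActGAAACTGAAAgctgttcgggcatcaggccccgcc
Ifit3 (chr19:34583279-34583528, plus strand): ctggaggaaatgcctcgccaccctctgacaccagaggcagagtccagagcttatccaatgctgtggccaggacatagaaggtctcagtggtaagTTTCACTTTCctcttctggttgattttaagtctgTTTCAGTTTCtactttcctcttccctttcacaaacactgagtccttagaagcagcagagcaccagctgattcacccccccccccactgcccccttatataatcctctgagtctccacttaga
Isg15 (chr4:156200819-156201068, minus strand): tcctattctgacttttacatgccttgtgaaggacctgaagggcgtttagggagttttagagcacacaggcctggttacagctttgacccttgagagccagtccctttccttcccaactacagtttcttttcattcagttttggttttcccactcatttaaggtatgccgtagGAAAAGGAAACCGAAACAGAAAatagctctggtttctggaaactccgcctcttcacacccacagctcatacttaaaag
The Irf1 window holds 1 GAS match, 90 bases before the start, and the Igtp window 1 GAS and 1 ISRE match, 45 and 34 bases before it. Ifit3 holds 2 ISRE matches and Isg15 holds 3. Igtp, an IRG family GTPase, had a log2 difference of -0.76 (SE 0.42, adjusted p = 0.243) and -0.93 (adjusted p = 0.0082) in the long fit. For long against short it was not called (-0.42, adjusted p = 0.846 in edgeR's test).

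Over windows of 300 bases that also take in 50 bases after the start, GAS letters occur in 8.3%, ISRE letters in 3.44% and the SMAD-binding letters CAGAC in 49.6% of all 32851 promoters of the table. Of the genes with a promoter there, ISRE letters were in 17 of 33 antiviral, 9 of 16 Ifi200 and Schlafen, 6 of 7 IRG, 4 of 4 GBP and 3 of 9 MHC class I genes. They were in 3 of 15 IFNγ signalling genes and in 1 of 6 peptide loading, 1 of 5 immunoproteasome and 1 of 7 chemokine genes, against 3.99% of the 27025 genes in the table. GAS letters were in 5 of 7 IRG, 2 of 4 GBP, 5 of 15 IFNγ signalling and 9 of 33 antiviral genes. They were in 1 of 9 MHC class I, 1 of 16 Ifi200 and Schlafen and 1 of 5 immunoproteasome genes. Of peptide loading and chemokine genes 0 of 6 and 0 of 7 had them, against 9.55% of the genes in the table. CAGAC was in 9 of 15 TGFβ targets and 7 of 11 feedback genes, against 53.2% of the genes in the table. The 45 genes of the interferon lists with ISRE letters had median log2 differences of -0.09, -0.15, -0.63 and -1.53 at the 4 durations. The 45 with neither motif had -0.11, -0.13, -0.46 and -1.13, and the 12 with GAS letters alone -0.10, -0.07, -0.33 and -1.06. All 3 sets had their most negative median at 24 h, and a match of letters is not a bound site.

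Of 17 tested molecules that restrain T cells 3 were higher and 1 lower after TGFβ first (median -0.35). Cd274, which encodes PD-L1 (ENSMUSG00000016496, chr19:29367455-29388095 on GRCm38), had 307, 315, 184 and 123 CPM in TGFβ-first libraries at 2, 6, 12 and 24 h, against 284, 269, 249 and 284 CPM in medium-first libraries. It was slightly above the medium-first values at 2 and 6 h and below all of them at 12 and 24 h. The overall difference was -0.35 (SE 0.37, adjusted p = 0.575), the short fit gave 0.18 (adjusted p = 0.739) and the long fit -0.79 (adjusted p = 0.00771), while the difference between long and short was -0.97 (SE 0.38, adjusted p = 0.432). Nt5e, which encodes the adenosine-producing ectoenzyme CD73, had 223, 258, 236 and 225 CPM in TGFβ-first libraries, against 77.5, 87, 80.2 and 54.1 CPM in medium-first libraries, a difference of 1.67 (SE 0.09, adjusted p = 2.15e-11) without overlap. Cd276, the checkpoint ligand B7-H3, rose by 0.50. Lgals3, galectin 3, had 40.8, 46.8, 20.2 and 16.8 CPM in TGFβ-first libraries, against 85.8, 92.3, 65.9 and 77.4 CPM in medium-first libraries, and fell by 1.40 (adjusted p = 6.95e-05 in edgeR's test). In the long fit 2 of 17 were higher and 6 lower, against 1 and 2 of 16 in the short fit. Over all genes 8.93% were higher and 10.5% lower in the long fit, and 2.87% and 1.89% in the short fit.

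Of 25 cell death genes 8 were lower and 1 was higher (median -0.26). Bax, a pore-forming activator of apoptosis, had 33.3, 33.9, 27.5 and 27.3 CPM in TGFβ-first libraries at 2, 6, 12 and 24 h, against 39.9, 55.9, 41.1 and 38 CPM in medium-first libraries. All TGFβ-first values lay below all medium-first values, of which that of 6 h was the highest. Bax (-0.51) and Bcl2l1, an inhibitor of it (-0.31), both fell, as did Casp4, Gsdmd and Mlkl, which act in pyroptosis and necroptosis, at -0.81, -0.85 and -0.61. Tnfsf10, which encodes the death ligand TRAIL, was at -1.37. The 1 higher member was Tnfrsf11b, osteoprotegerin, a decoy receptor that binds RANKL and TRAIL. The count of lower members was 3 without the TGFβ-first library of 24 h and 4 without that of 12 h or either medium-first library of 12 and 24 h.

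Of 5 tested melanocyte genes 1 was higher and 2 were lower (median -0.59). Lef1, a factor of WNT signalling, rose by 0.55, at 18.0 to 19.0 CPM in TGFβ-first and 11.7 to 13.3 CPM in medium-first libraries. Pax3, an activator of Mitf, overlapped between the groups and was not called (0.10, adjusted p = 0.558 in edgeR's test), nor was Rab27a. The regulator Mitf had 10.9, 11.9, 12.8 and 11.2 CPM in TGFβ-first libraries at 2, 6, 12 and 24 h, against 15.1, 18.4, 20.2 and 17.1 CPM in medium-first libraries, a log2 difference of -0.59 (SE 0.09, adjusted p = 2.94e-05) with no overlap. Gpnmb, a melanosomal protein under its control, had 72.2, 74.2, 27 and 26.4 CPM in TGFβ-first libraries, against 149, 159.7, 86.4 and 108 CPM in medium-first libraries, with a difference of -1.38 (SE 0.27, adjusted p = 0.00114). Of 15 genes of the undifferentiated melanoma state 4 were higher and 3 lower (median 0.17), among them Egfr (0.91) and Met (0.75), receptor tyrosine kinases, which rose, and Sox2 (-0.71), a stem cell factor, which fell. Few cell cycle genes were called: 1 of 28 replication genes (Ccnd3) and 1 of 24 mitosis genes (Cdc25b) were lower and 0 higher, with medians of -0.05 and -0.09. The call of Cdc25b was lost without the TGFβ-first library of 12 or 24 h or the medium-first library of 2 h (adjusted p of up to 0.0812 in edgeR's test). In the long fit 9 of 28 replication and 5 of 24 mitosis genes were lower, where 10.5% of all genes were. There 0 replication genes and 1 mitosis gene were higher, against 8.93% of all genes. Of 18 MAPK output genes 6 were higher and 1 lower (median 0.12), among them Myc (0.55) and the ERK phosphatase Dusp5 (0.79). Without duration as a block 1 of these was higher, and without the TGFβ-first library of 6 h 3 were.

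The same pretreatment was also followed by medium in place of IFNγ, in 4 libraries of TGFβ then medium and 4 of medium at both stages. There 4325 genes were called (29%), 2163 higher and 2162 lower (14.5% each). Of the 2365 genes called with IFNγ second, 1592 were called in the same direction with medium second, which is 67.3% of these genes and 36.8% of the 4325. The sign was the same for 2246 of the 2365 (95%), and 7 genes were called in opposite directions. With medium second, 44 of 45 antiviral genes, 11 of 12 MHC class I chains, 10 of 10 IRG and 9 of 10 GBP genes were lower after TGFβ, with medians of -1.94, -1.85, -2.28 and -2.22. Antiviral genes summed to 9129, 7477, 1466 and 1086 CPM after TGFβ and then medium, against 12763, 10213, 13493 and 13689 CPM after medium alone, at 2, 6, 12 and 24 h. IRG genes summed to 641, 394, 40.6 and 23.7 CPM after TGFβ and then medium, against 1038, 745, 1035 and 1082 CPM after medium alone. With IFNγ second the IRG genes summed to 4668, 4428, 4281 and 3404 CPM in TGFβ-first libraries at 2, 6, 12 and 24 h, against 5083, 4923, 5378 and 5434 CPM in medium-first libraries. The difference between the second stimuli was called for 0 of the IRG, GBP and MHC class I genes and for 1 antiviral gene, Ifitm1. The estimates were not near equal, however. The median difference in effect, IFNγ minus medium second, was 1.72 for IRG, 1.73 for GBP, 1.00 for MHC class I and 1.24 for antiviral genes. Over all genes tested it was -0.001. Single genes were imprecise, such as Gbp2 at 2.04 (SE 0.87, adjusted p = 0.326 in edgeR's test), so the lack of calls does not show equal effects.

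**Figure D5:**
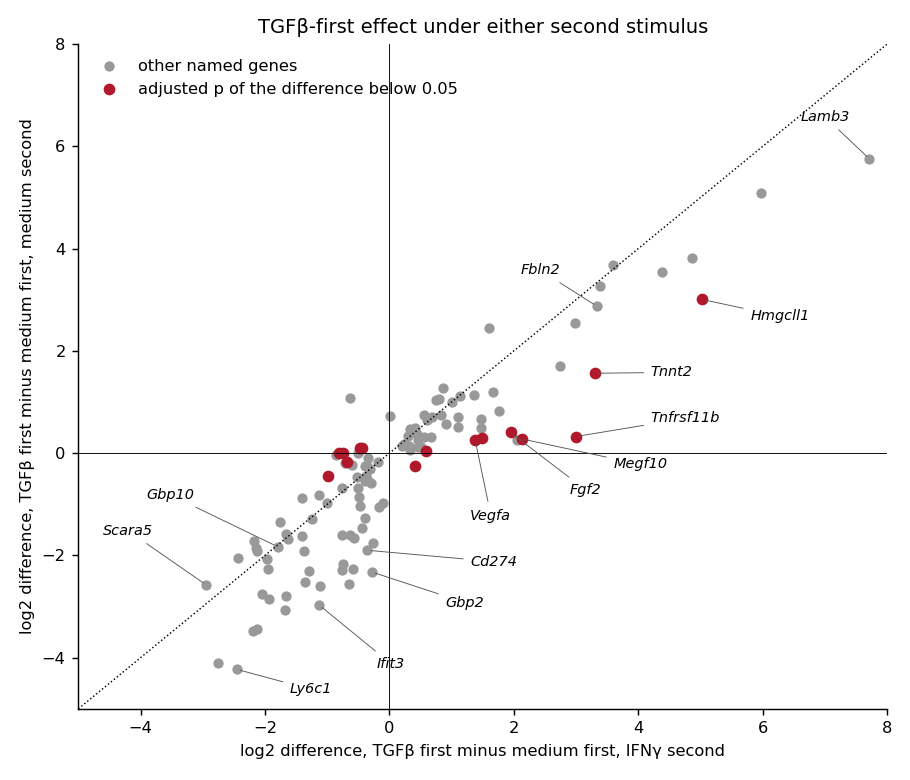
Log2 difference of TGFβ first minus medium first with IFNγ second (x axis) and with medium second (y axis) for the named genes, with the line of equality dotted. Red points are genes whose difference between the second stimuli has an adjusted p below 0.05; Tnfrsf11b, Tnnt2, Vegfa, Fgf2 and Megf10 lie below the line at differences above 1 on the x axis, and Gbp2, Cd274 and Ifit3 lie below it near or left of 0.

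A direct test of the difference between the second stimuli called 59 genes (0.395%), 48 (0.321%) with a more positive and 11 (0.0737%) with a more negative TGFβ effect under IFNγ, and 1926 had an unadjusted p below 0.05. Tnnt2 averaged 510.0 ± 25.1 CPM in TGFβ-first and 52 ± 5.04 CPM in medium-first libraries, and 447 ± 39 CPM after TGFβ and then medium and 152 ± 8.53 CPM after medium alone (SD, n = 4 each), so that the TGFβ effect was larger under IFNγ by 1.74 (SE 0.13, adjusted p = 6.97e-08). Vegfa had 1280.1, 1693, 1223 and 1201 CPM in TGFβ-first libraries, against 530.2, 692, 475 and 396 CPM in medium-first libraries, and averaged 1448 ± 157 CPM after TGFβ and then medium and 1244 ± 427 CPM after medium alone. Its effect was larger under IFNγ by 1.13 (SE 0.15, adjusted p = 0.000348), and by 0.96 (adjusted p = 6.17e-05) without the library of medium at both stages of 6 h, in which Vegfa was at 1883 CPM. Fgf2, a fibroblast growth factor, averaged 34.3 ± 2.03 CPM in TGFβ-first and 8.87 ± 0.88 CPM in medium-first libraries and 37.3 ± 2.39 CPM after TGFβ and then medium and 28.7 ± 11.2 CPM after medium alone, a difference in effect of 1.54 (SE 0.19, adjusted p = 0.000156). Megf10, an engulfment receptor, averaged 25.6 ± 4.74 CPM in TGFβ-first and 5.95 ± 2.09 CPM in medium-first libraries and 68 ± 4.1 CPM after TGFβ and then medium and 59.1 ± 37.3 CPM after medium alone, a difference in effect of 1.85 (SE 0.32, adjusted p = 0.00643). In Vegfa, Fgf2 and Megf10 the medium-first IFNγ libraries were thus the low ones of the 4 groups. For Skil the difference in effect was 0.54 (SE 0.08, adjusted p = 0.000495), for Col5a2 1.20 (SE 0.25, adjusted p = 0.0288) and for Hmgcll1 2.02 (SE 0.43, adjusted p = 0.0347).

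Tnfrsf11b was higher after TGFβ with IFNγ second, at 21, 22.9, 5.3 and 3.15 CPM in TGFβ-first libraries, against 2.22, 1.74, 0.76 and 1.06 CPM in medium-first libraries, and averaged 1.27 ± 0.536 CPM after TGFβ and then medium and 1.01 ± 0.481 CPM after medium alone (SD, n = 4 each). The values of TGFβ for 2 and 6 h followed by IFNγ were above those of 12 and 24 h, and all 4 were above every medium-first library. The TGFβ effect was larger under IFNγ by 2.67 (SE 0.59, adjusted p = 0.0448), a call that 5 of 19 alternatives kept and that leaving out any single one of 7 of the 8 libraries ended (adjusted p of up to 0.127). Among the genes with a more negative effect under IFNγ, Lmo7, an adherens junction protein, averaged 27.6 ± 1.65 CPM in TGFβ-first and 46.6 ± 4.35 CPM in medium-first libraries and 32.2 ± 1.25 CPM after TGFβ and then medium and 32 ± 2.32 CPM after medium alone, a difference in effect of -0.76 (SE 0.10, adjusted p = 0.000176). For Oaf, Cavin3, a caveolar protein, Ccdc181, Abcb10 and Itpk1 it was -0.54, -0.80, -0.51, -0.57 and -0.54. Leaving out any 1 of the 8 libraries kept the calls of Tnnt2, Skil, Vegfa, Fgf2, Megf10, Lmo7 and Oaf. Of these, Skil (adjusted p = 0.0859) and Oaf (adjusted p = 0.108) were not called without duration as a block, and Skil (adjusted p = 0.101), Megf10 (adjusted p = 0.126) and Oaf (adjusted p = 0.236) not without all libraries of 12 h. Leaving out 1 library ended those of Hmgcll1, Col5a2, Ifitm1, Cavin3, Ccdc181, Abcb10 and Itpk1 in 1 or more cases, with adjusted p-values of up to 0.122. Of their alternatives, Hmgcll1 was called under 4 of 19, Abcb10 under 4, Ccdc181 under 6, Cavin3 under 8, Col5a2 and Itpk1 under 9 and Ifitm1 under 10 of 20. Without the library of medium at both stages of 6 h the difference in effect was 1.28 (adjusted p = 8.38e-08) for Fgf2, 1.40 (adjusted p = 0.000507) for Megf10, 0.79 (adjusted p = 0.000557) for Col5a2 and 1.75 (adjusted p = 8.38e-08) for Tnnt2, while Hmgcll1 (adjusted p = 0.0671) and Abcb10 (adjusted p = 0.0607) were no longer called.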

How the data were processed

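Raw counts per gene (RNA-seq) were deposited by the authors as 1 table of whole-number counts for 28229 Ensembl genes and 29 libraries. Reads were aligned with HISAT to GRCm38, per the submitters' processing notes. No label or header names the counting tool, annotation or strand setting, so antisense and near-identical genes may share reads. Symbols are those of the deposited table, of whose IDs 28164 matched Gencode M21.

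Genes passing edgeR's filterByExpr (minimum count 10) numbered 14935. All 29 libraries were fitted with edgeR 4.0.16 (R 4.3.3, limma 3.58.1) by quasi-likelihood on TMM-scaled counts, with group and duration as factors (18 residual degrees of freedom), and p-values were adjusted by Benjamini-Hochberg over all tested genes with a threshold of 0.05. The difference between second stimuli and the slope on log2 duration (14 residual degrees of freedom) were tested in the same way. SE is the absolute log2 difference divided by the square root of F. CPM are on TMM-scaled library sizes, and log2 differences at single durations use a prior count of 2.

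Deviations of libraries of equal duration correlated at 0.139, 0.288, 0.223 and 0.106, all above 0.1, so durations were taken to pair the groups. Some libraries of unequal duration correlated as highly, such as TGFβ first for 24 h with medium first for 12 h (0.202), 6 h with 2 h (0.169) and 12 h with 24 h (0.120). The smallest difference between replicate libraries was above sampling noise, so none was merged. Named genes were the 12 highest and 12 lowest called with at least 2 CPM, up to 4 per list by p, a set of anchor genes, and up to 6 in each direction of the tests of duration and second stimulus. Members of lists named as called are given beside these, and some genes that the rule takes in are not reported here. Members and lists were chosen with earlier results of these data known. Fits were checked on simulated data. Alternatives were DESeq2 1.42.0, other scaling, filters and designs, left-out libraries and durations, and, added after the data were seen, fits to 2 and 6 h or to 12 and 24 h.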

Additional observations from a re-analysis of the deposited data

Results flagged for a closer look

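In 15 named genes the TGFβ effect differed between the second stimuli, with IFNγ minus with medium, in edgeR's test. It was more positive under IFNγ for Tnfrsf11b by 2.67 (adjusted p = 0.0448), for Hmgcll1 by 2.02 (adjusted p = 0.0347), for Megf10 by 1.85 (adjusted p = 0.00643) and for Tnnt2 by 1.74 (adjusted p = 6.97e-08). The same held for Fgf2 by 1.54 (adjusted p = 0.000156), for Col5a2 by 1.20 (adjusted p = 0.0288), for Vegfa by 1.13 (adjusted p = 0.000348), for Ifitm1 by 0.66 (adjusted p = 0.0261) and for Skil by 0.54 (adjusted p = 0.000495). It was more negative for Cavin3 at -0.80 (adjusted p = 0.027), Lmo7 at -0.76 (adjusted p = 0.000176), Abcb10 at -0.57 (adjusted p = 0.0469) and Oaf at -0.54 (adjusted p = 0.0116). The others were Itpk1 at -0.54 (adjusted p = 0.0261) and Ccdc181 at -0.51 (adjusted p = 0.0366).

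A single library stood far from the other 3 of its group in 14 of 238 groups of 4 examined, where chance alone gives about 1 in 20, or 11.9. Among TGFβ-first libraries these were Vegfa at 6 h, with 1693 CPM against 1201 to 1280.1 CPM, and Tgfbr3 at 6 h, with 26.0 CPM against 18.4 to 18.9 CPM. Among medium-first libraries of 2 h they were Lamb3 at 0.0444 CPM against 0, Myo18b at 4.66 CPM against 2.89 to 3.02 CPM and Smad7 at 42.9 CPM against 37.3 to 38.1 CPM. Also at 2 h, Igtp was at 587.6 CPM against 568 to 571 CPM, and Tap1 at 343 CPM against 338 to 339 CPM. In the medium-first library of 6 h Mmp12 was at 1.23 CPM against 0.500 to 0.622 CPM and Bax at 55.9 CPM against 38 to 41.1 CPM, and in that of 12 h Actr3b was at 0.760 CPM against 0.392 to 0.445 CPM. In that of 24 h Ly6c1 was at 12.0 CPM against 17.6 to 18.6 CPM, Ltf at 15.6 CPM against 11.4 to 11.7 CPM, Col12a1 at 4.28 CPM against 3.64 to 3.69 CPM and Adam12 at 0.0556 CPM against 0.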

How the results depend on the processing

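The count of 2365 called genes was 1232 without the replicate block, 1012 with only the 8 libraries and no block, 1039 without all 12 h libraries and 1340 without all 24 h libraries. Leaving out 1 of the 8 libraries gave 1753 to 2249. The fit to 2 and 6 h alone, chosen after seeing the data, gave 672. The 59 genes that differed between second stimuli were 225 in DESeq2, 114 without a filter on low counts and 90 with at least 10 CPM. They were 16 without the replicate block, 16 with only the groups compared and the block, and 2 with only those and no block. Leaving out 1 library gave 32 to 60, the count being over 1.5 times lower without the TGFβ-first library of 2 h (38) or 12 h (32) or the medium-first library of 2 h (34) or 6 h (36), and leaving out all libraries of 2, 12 or 24 h gave 37, 8 and 17. Without the library of medium at both stages of 6 h, which stood apart, the counts were 3106 and 87. For the slope on duration, with 0 called, DESeq2 gave 1, no filter 1, leaving out 1 library 0 to 3, leaving out all libraries of 2 h 1 and of 6 h 41, and the contrast of long against short durations 10. The causes were not tested.

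Tgfbi took the opposite sign with at least 10 CPM (-0.0040), without all 24 h libraries (-0.054), with 2 and 6 h alone (-0.062) and without 1 library (-0.086 to 0.088). Irf1 did so without 1 library (-0.22 to 0.0043), and Cxcl10 (0.27) and Cd274 (0.18) with 2 and 6 h alone. None of these was called. Of 2587 comparisons of 119 named genes with an alternative, 2353 kept side and direction, 182 lost and 43 gained the call, 9 changed sign, and 59 genes kept theirs throughout. Lamb3 and Adam12, at or near 0 in medium-first libraries, were called throughout, but depth there gives no fold.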
